A study of Mus musculus with 63 samples.

Results

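The regions described here are stretches of open chromatin that had an ATAC-seq peak in all 3 libraries of *Chaserr*-/- mouse embryonic fibroblasts (mEFs) and in none of the 3 libraries of wild-type (WT) mEFs of the same set. Peaks of the 6 libraries that overlapped by at least 1 base were merged into 122419 regions, and 1723 of these (1.41%) met the rule and are called KO-only regions. The mirror rule, a peak in all 3 WT and no *Chaserr*-/- library, was met by 118 regions, and 38126 regions had a peak in all 6 libraries. The regions were selected on the presence of peaks in these libraries, so their difference between *Chaserr*-/- and WT mEFs is a description and carries no test. The counts of 1723 and 118 depend on the number of peaks called per library, as described below. By read coverage, a different measure, the study reported fewer regions with increased than with reduced accessibility in *Chaserr*-/- mEFs.

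The mEFs were primary cells from E13.5 embryos. The *Chaserr*-/- allele removes the promoter and first exon of *Chaserr* and came from a pair of founder lines. The *Chaserr*-/- ATAC-seq set held replicates 1 to 3 of *Chaserr*-/- and replicates 4 to 6 of WT mEFs. A separate set, from another pregnancy, held 3 libraries of *Chaserr*-/- *Chd2*m/m (double mutant) mEFs and 3 WT libraries. The double mutant carries a frameshift allele of *Chd2* and a separate deletion of the *Chaserr* promoter and first exon, made in *Chd2*m/m mice. RNA-seq was available for *Chaserr*-/-, *Chaserr*+/- and *Chaserr*-/- *Chd2*m/m mEFs, each with 3 WT libraries of its own. Primary mEFs are a mixed culture of embryonic mesenchyme, so fewer cells of a type and less RNA or less open chromatin per cell cannot be told apart in these bulk libraries. The extraction text in the labels of the ATAC-seq samples describes dorsal root ganglia, whereas the study's methods describe nuclei of mEFs.

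ATAC-seq marks DNA that the Tn5 transposase can reach, such as active promoters and enhancers, and a narrow peak is a place where its cuts pile up over the local background. *Chaserr* is a long noncoding RNA gene that lies upstream of *Chd2* on the same strand, and CHD2 is a chromatin remodeller that uses ATP to move and space nucleosomes. Enhancers active in fibroblasts often hold the binding sequence of AP-1, a family of dimers of FOS, JUN and ATF proteins that respond to serum and stress. TEAD and RUNX proteins are further factors known to bind such enhancers in mesenchymal cells.

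The sequences below are examples of KO-only regions, and their choice does not show how often AP-1 matches occur in the set. They comprise 3 of the regions with the strongest peaks that hold an AP-1 match and a strong region without such a match. Of the genes nearest to a KO-only region within 50 kb, 2 had RNA that passed the test in *Chaserr*-/- mEFs. Also given are the regions of these 2 genes, the strongest promoter region and the weakest region. Each gives the 151 bases centred on the summit of the strongest *Chaserr*-/- peak, 5′ to 3′ on the plus strand of mm9, and is named by the gene with the nearest start. Capitals mark matches to the AP-1 letters TGANTCA, which read the same way on both strands.
Lysmd4, chr7:74432416-74432566: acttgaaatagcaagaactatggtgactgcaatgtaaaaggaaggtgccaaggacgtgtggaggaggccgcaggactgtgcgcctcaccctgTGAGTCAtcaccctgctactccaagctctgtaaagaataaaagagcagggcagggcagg
4931429P17Rik, chr13:48170096-48170246: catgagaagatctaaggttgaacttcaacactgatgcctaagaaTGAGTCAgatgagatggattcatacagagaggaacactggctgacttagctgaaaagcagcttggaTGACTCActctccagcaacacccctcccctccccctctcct
4930577N17Rik, chr3:51093124-51093274: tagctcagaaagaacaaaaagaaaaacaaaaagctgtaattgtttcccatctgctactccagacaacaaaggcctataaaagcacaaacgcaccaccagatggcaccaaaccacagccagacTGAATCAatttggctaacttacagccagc
Parm1, chr5:91894240-91894390: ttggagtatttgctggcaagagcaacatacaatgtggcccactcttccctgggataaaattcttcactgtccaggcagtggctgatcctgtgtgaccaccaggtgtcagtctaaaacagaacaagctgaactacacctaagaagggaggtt
Sytl4, chrX:130516285-130516435: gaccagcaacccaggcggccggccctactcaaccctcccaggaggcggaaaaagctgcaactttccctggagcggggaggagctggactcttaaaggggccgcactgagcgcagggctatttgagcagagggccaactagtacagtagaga
Vim, chr2:13497253-13497403: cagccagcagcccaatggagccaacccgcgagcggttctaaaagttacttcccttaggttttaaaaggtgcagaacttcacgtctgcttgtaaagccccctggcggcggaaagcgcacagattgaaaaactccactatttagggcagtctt
Dapk3, chr10:80647593-80647743: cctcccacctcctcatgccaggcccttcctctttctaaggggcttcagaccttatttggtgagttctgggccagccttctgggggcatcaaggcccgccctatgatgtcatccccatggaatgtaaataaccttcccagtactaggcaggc
Mybph, chr1:136102784-136102934: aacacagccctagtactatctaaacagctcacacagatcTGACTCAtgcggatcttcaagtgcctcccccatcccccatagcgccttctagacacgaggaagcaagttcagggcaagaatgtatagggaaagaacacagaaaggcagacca
The region near *4931429P17Rik* held a pair of AP-1 matches, centred 28 bases before and 38 bases after the summit. The *Parm1*, *Sytl4*, *Vim* and *Dapk3* sequences held none in this window.

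The peaks at the targeted locus followed the genotype labels. The *Chaserr* promoter, at chr7:80703282 on the minus strand, had a peak in all 6 WT libraries, with a fold enrichment over the local background of 16.8, 14.2 and 12.7 in WT replicates 4 to 6 and of 14.7, 12.6 and 11.0 in the WT libraries of the other set. None of the 6 libraries with a *Chaserr* deletion had a peak there, and the region chr7:80703221-80703991 was itself 1 of the 118 WT-only regions. The *Chd2* promoter, at chr7:80686632, had a peak in all 6 libraries of the *Chaserr*-/- set, with a fold enrichment of 3.96, 3.91 and 4.83 in *Chaserr*-/- and of 4.58, 3.68 and 3.63 in WT mEFs. Those values overlapped between the genotypes. In the other set it had a peak of 3.67 and 4.28 in WT replicates 1 and 3 and of 6.16 and 5.28 in double mutant replicates 2 and 3. It had none in WT replicate 2 and double mutant replicate 1, which leaves too few values to compare the genotypes.

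The number of peaks differed between libraries, and this bears on every count below. *Chaserr*-/- replicates 1 to 3 had 62610, 91121 and 93597 peaks covering 25.06, 40.43 and 42.74 Mb, and WT replicates 4 to 6 had 66967, 70516 and 58324 peaks covering 25.44, 27.29 and 22.73 Mb. *Chaserr*-/- replicates 2 and 3 stood above all other libraries of their set. In the other set, the WT libraries had 65345, 18661 and 65665 peaks and the *Chaserr*-/- *Chd2*m/m libraries 28349, 80703 and 81986, so WT replicate 2 and double mutant replicate 1 stood apart as low. When only the 58324 peaks of smallest p were kept in each library, 619 KO-only and 355 WT-only regions were found, a ratio of 1.74 in place of 14.6 with all peaks. The count also depended on single libraries, and leaving out *Chaserr*-/- replicate 1 or 2 gave 7864 or 2728 regions, and leaving out WT replicate 4 or 5 gave 3114 or 3825. The files hold no read counts per peak or per library, so the read depth behind these peaks is unknown.

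**Figure D1:**
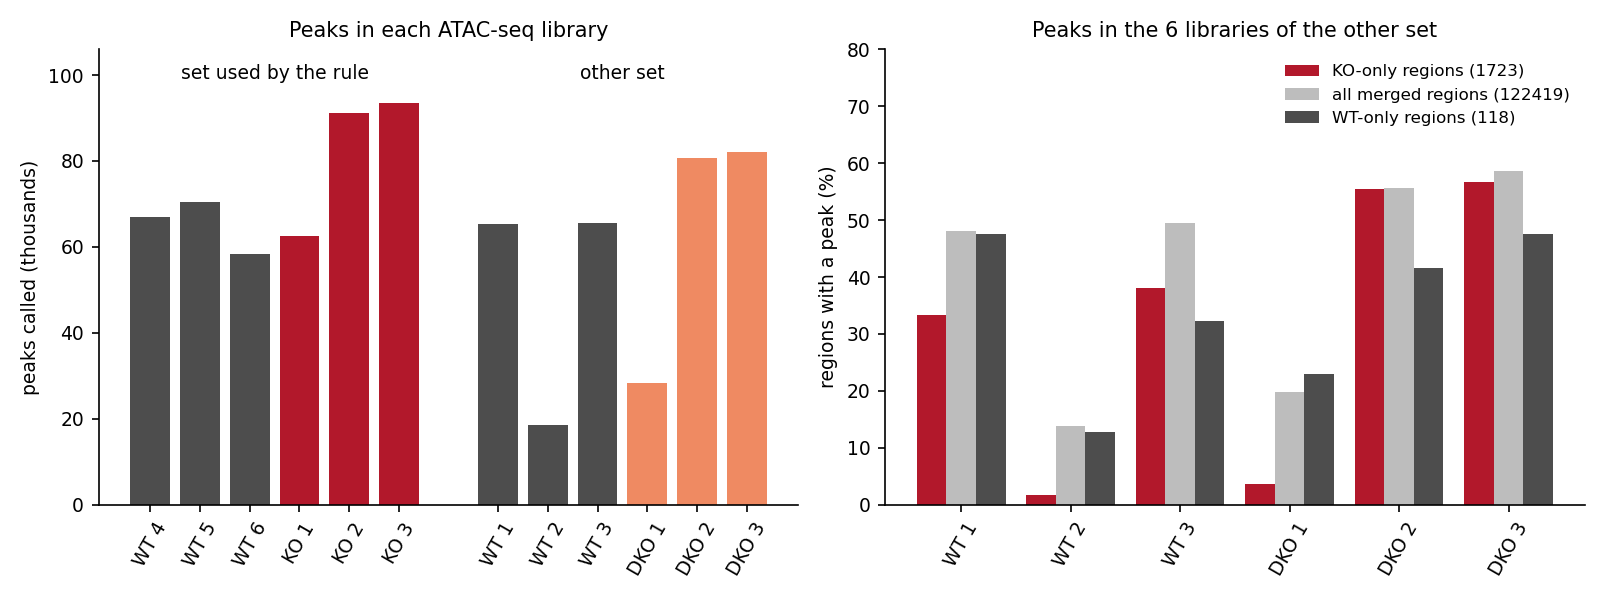
Left, number of peaks called in each of the 12 mEF libraries (KO, *Chaserr*-/-, DKO, *Chaserr*-/- *Chd2*m/m). Right, percent of KO-only, all merged and WT-only regions with a peak in each library of the other set. Of the KO-only regions, 55.5% and 56.6% had a peak in DKO 2 and DKO 3, and 1.74% and 3.71% in WT 2 and DKO 1, the libraries with the fewest peaks.

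Promoter peaks were found at most fibroblast genes. Of 17 fibroblast genes, 14 had a promoter peak in each of the 6 libraries of the *Chaserr*-/- set, and in the other set 14, 5 and 13 had one in WT replicates 1 to 3 and 9, 14 and 14 in double mutant replicates 1 to 3. Over all 26061 gene symbols of the annotation, 51.6 to 56.0% had a promoter peak in the libraries of the *Chaserr*-/- set. In the other set, the shares were 49.8, 29.3 and 52.1% in WT and 36.9, 51.5 and 53.6% in double mutant replicates 1 to 3. Of 12 sensory neuron genes, 5, 8 and 8 had one in *Chaserr*-/- replicates 1 to 3 and 7, 8 and 8 in the WT libraries. Of 15 macrophage genes, 1, 2 and 3 had one in *Chaserr*-/- and 3, 2 and 2 in WT mEFs, and of 14 skeletal muscle genes, 3, 5 and 1 in *Chaserr*-/- and 4, 2 and 2 in WT mEFs. Of 11 chondrocyte genes, 4, 6 and 5 had one in *Chaserr*-/- and 4, 6 and 2 in WT mEFs. In the *Chaserr*-/- set, the counts of each list overlapped between the genotypes.

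KO-only regions were weaker peaks than those found in all 6 libraries. Their median fold enrichment was 4.66 (quartiles 4.19 and 5.50), 4.81 (4.11 and 5.90) and 5.07 (4.23 and 6.07) in *Chaserr*-/- replicates 1 to 3. Regions with a peak in all 6 libraries had medians of 8.46, 8.95 and 9.30 in the same libraries, the 4154 regions with a peak in 3 *Chaserr*-/- libraries and 1 WT library had 5.08, 5.21 and 5.50, and the 7853 regions with a peak in 2 *Chaserr*-/- and no WT library had 4.39, 4.32 and 4.65 where a peak was called. The medians of KO-only regions lay between those of these neighbours in the rule. Their median width was 374 bases (from 146 to 1457), against 373 bases for all merged regions and 717 bases for regions found in all 6 libraries. In 450 KO-only regions (26.1%), the −log10 q was 5 or more in every *Chaserr*-/- library, against 92.2% of the regions found in all 6.

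**Figure D2:**
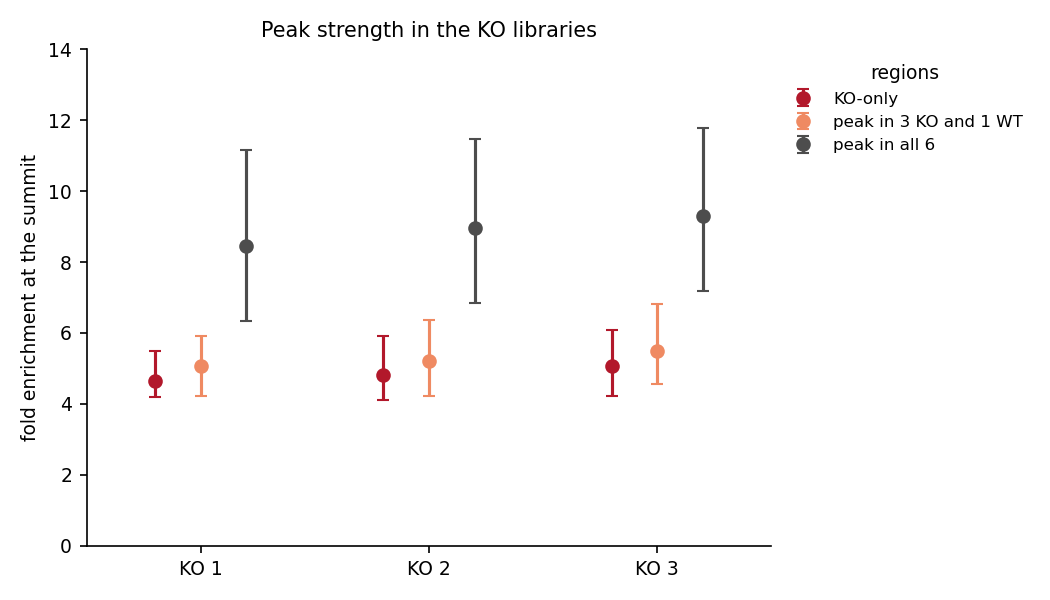
Fold enrichment at the summit in the 3 *Chaserr*-/- (KO) libraries, as the median (point) and quartiles (bars) over regions, for KO-only regions, regions with a peak in 3 KO and 1 WT library, and regions with a peak in all 6. KO-only regions had medians from 4.66 to 5.07, below the 8.46 to 9.30 of regions with a peak in all 6 libraries.

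The strongest KO-only regions, ordered by the lowest of their 3 fold enrichments, lay in introns or between genes. Their distance from the start of the gene they are named by ranged from 11706 bases (*4930577N17Rik*) to 364666 bases (*Gm10474*). The highest was chr7:74432301-74432771, in an intron of *Mef2a*, which encodes a MADS-box transcription factor of muscle and other cells, and 64997 bases downstream of the start of *Lysmd4*. Its fold enrichment was 9.74, 9.28 and 11.4 in *Chaserr*-/- replicates 1 to 3. In the other set it had a peak of 5.41 in WT replicate 1 and of 7.01 and 8.90 in double mutant replicates 2 and 3. It thus had a peak in 1 WT culture of the other pregnancy.

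The next region, chr13:48170004-48170301, lay in an intron of *A330033J07Rik*, with fold enrichments of 8.89, 9.70 and 12.3. It was present in WT replicate 3 of the other set at 8.43 and in double mutant replicates 2 and 3 at 10.5 and 6.28. The intergenic region chr5:91894176-91894449 lay 52326 bases upstream of *Parm1*, which encodes a mucin-like membrane protein, at 8.89, 10.5 and 9.30. It had no peak in a WT library of the other set and 1 of 9.01 in double mutant replicate 2. The region chr19:22958402-22958982, in an intron of the cation channel gene *Trpm3*, reached 10.3, 8.56 and 12.5. In the other set it had peaks of 10.0 and 9.83 in WT replicates 1 and 3 and of 11.8 and 11.1 in double mutant replicates 2 and 3. It had none in WT replicate 2 and double mutant replicate 1. The region chr3:51092966-51093328, in an intron of *Elf2*, an ETS family transcription factor gene, reached 8.89, 14.8 and 8.46, with a peak of 11.4 in WT replicate 3 of the other set. The region chrX:65566771-65567016, 364666 bases from *Gm10474*, reached 8.89, 9.28 and 8.46 and had peaks of 10.0 and 9.95 in double mutant replicates 2 and 3 but none in a WT library. Of these 6 regions, 4 had a peak in at least 1 WT library of the other set and all 6 in at least 1 double mutant library.

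Among the weakest members was an intronic region of *Vim*, chr2:13497069-13497392, 1774 bases downstream of the start, at 3.10, 2.08 and 1.94. *Vim* encodes vimentin, the intermediate filament protein of mesenchymal cells. The other was chr11:75273981-75274204, 890 bases upstream of the start of *2210403K04Rik*, at 2.66, 2.34 and 2.16, which also had peaks of 3.64 and 2.91 in double mutant replicates 2 and 3. The *Vim* intron region had none in the other set.

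Few KO-only regions lay at promoters. Within 300 bases of a gene start lay 39 of them (2.26%), against 9.43% of all merged regions and 25.5% of the regions found in all 6 libraries. Introns held 775 (45.0%) and intergenic sequence 776 (45.0%), against 41.0% and 42.6% of all merged regions, while exons held 97 (5.63%) and the first 2000 bases downstream of a gene 33 (1.92%). The 3 others were on sequences without annotated genes. Regions adjacent in the rule were placed alike, with 1.80% at promoters for those in 2 *Chaserr*-/- and no WT library and 2.60% for those in 3 *Chaserr*-/- libraries and 1 WT library. The median distance to the nearest gene start was 33829 bases, against 29033 for all merged regions.

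**Figure D3:**
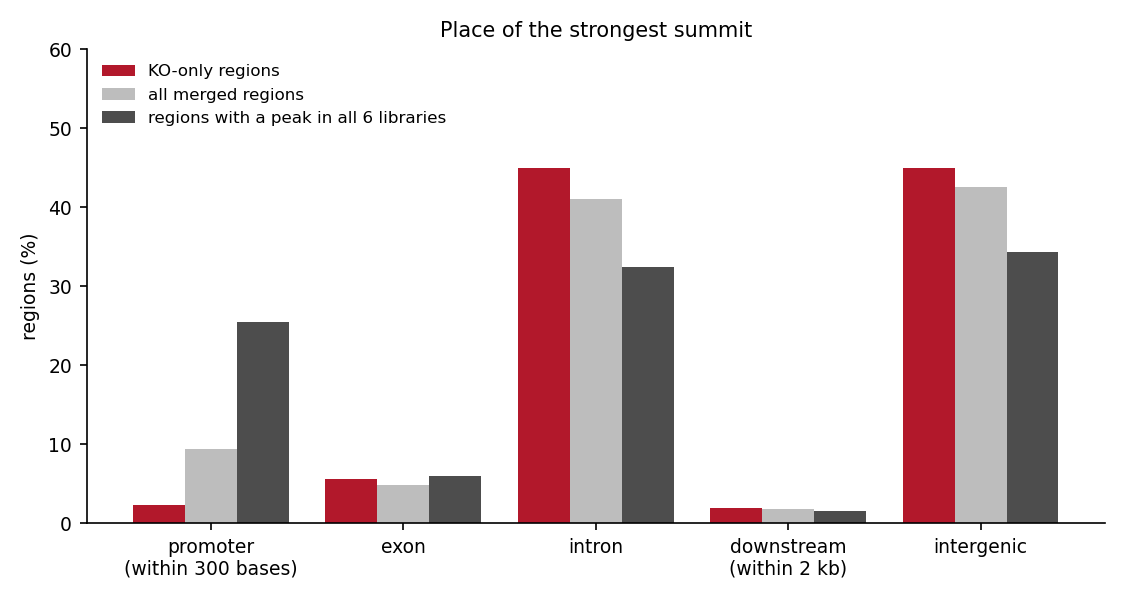
Percent of regions at promoters, in exons, in introns, within 2000 bases downstream of genes and between genes, for KO-only regions, all merged regions and regions with a peak in all 6 libraries. KO-only regions had 2.26% at promoters, against 25.5% for regions with a peak in all 6 libraries.

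The members were spread thinly over the genome. Within 50 kb of a gene start lay 1022 of them (59.3%; 62.6% of all merged regions), and their 978 nearest genes had 1 region each in 934 cases, 2 in 44 and never 3 or more. Among the autosomes and X, chromosome 12 had the highest share of its regions in the set (1.82%) and chromosomes X (1.15%) and 11 (1.16%) the lowest, while chromosome 7, which carries *Chaserr*, had 119 of 6902 (1.72%). Around *Chaserr* itself, 1 of 133 regions within 1 Mb (0.752%) and 18 of 1200 within 10 Mb (1.5%) were KO-only, and the nearest lay 820 kb away.

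The strongest KO-only promoter was that of *Sytl4*, which encodes granuphilin, a RAB27 effector of secretory granules. The region chrX:130515937-130516432 had fold enrichments of 8.04, 7.17 and 7.61, no peak in a WT library of either set, and peaks of 7.01 and 5.76 in double mutant replicates 2 and 3. The promoter of *1700071M16Rik*, in the gene body of *Pla2g7*, which encodes a phospholipase that breaks down platelet-activating factor, had 6.77, 8.01 and 5.92. The promoter of the collagen VI gene *Col6a4* had 6.77, 5.90 and 5.92, and that of *Rhbdl2*, a rhomboid protease gene, 5.50, 5.90 and 5.92. All of these had peaks in double mutant replicates 2 and 3 and none in WT mEFs. Among the 10 strongest promoter regions, those of *Sytl4*, *1700071M16Rik*, *Col6a4*, *1700001L05Rik*, *Rhbdl2*, *Nhedc2*, *Ypel4* and *Cand2* had a peak in a double mutant library, and that of *Nhedc2* also in a WT library of the other set. Those of *Ak7*, an adenylate kinase gene, and *Gm15910*, which shares its position with *Msrb3*, had neither. Over all KO-only regions, 76.3% had a peak in a double mutant library and 55.1% in a WT library of the other set. The shares of all merged regions were 69.2% and 59.2%.

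The RNA of these promoter genes was mostly low. Of the 39 promoter genes, 34 had an RNA value, with a median WT level of 0.37 FPKM (fragments per kilobase of transcript, scaled to library size), and 17 were expressed enough to be tested. *Sytl4* was at 2.10, 1.15 and 2.75 CPM, the count scaled to a common library size, in WT and 2.57, 2.46 and 3.06 in *Chaserr*-/- mEFs, which overlapped (log2 fold change 0.42, adjusted p = 0.404). *Rhbdl2* was at 0.638, 0.417 and 1.08 in WT and 0.821, 1.67 and 1.53 CPM in *Chaserr*-/- mEFs, also overlapping (0.91, adjusted p = 0.193). *1700001L05Rik* was at 2.10, 1.98 and 1.57 in WT and 2.26, 3.69 and 3.57 CPM in *Chaserr*-/- mEFs, without overlap (0.75, adjusted p = 0.121). The RNA of *1700071M16Rik*, *Col6a4*, *Nhedc2*, *Ak7*, *Ypel4* and *Gm15910* was too low to be tested. *Cand2*, which encodes a regulator of cullin ligases of muscle, was at 62.9, 65.4 and 66.2 in WT and 45.4, 50.7 and 43.6 CPM in *Chaserr*-/- mEFs. The *Cand2* groups did not overlap, but its log2 fold change of −0.48 missed the threshold (adjusted p = 0.0532). It passed with DESeq2 (adjusted p = 0.0136) and with at least 10 counts in every library (adjusted p = 0.0451), and the log2 fold change was 0.01 after correction for GC content and gene length (adjusted p = 0.977).

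The letters of 12 known motifs were searched on both strands in 301 bases around the summit of 1720 KO-only regions and 121996 merged regions with full sequence. AP-1 matches (TGANTCA) were found in 647 KO-only regions, 37.6% (95% exact binomial interval 35.3 to 40.0%, counting error only), against 27.5% of all merged regions, 26.9% of the regions found in all 6 libraries and 19.5% of the WT-only regions. The gap to the regions found in all 6 libraries was narrower away from promoters. Outside promoters, AP-1 was matched in 38.2% of KO-only regions, 29.9% of all merged regions and 34.6% of the regions found in all 6. Of the neighbours in the rule, the regions with a peak in 3 *Chaserr*-/- libraries and 1 WT library had 36.4%, within the interval of KO-only regions, and those with a peak in 2 *Chaserr*-/- libraries and no WT library had 30.6%, below it. Of the AP-1 matches, 62.7% lay within 50 bases of the summit in KO-only regions and 58.4% in all merged regions.

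**Figure D4:**
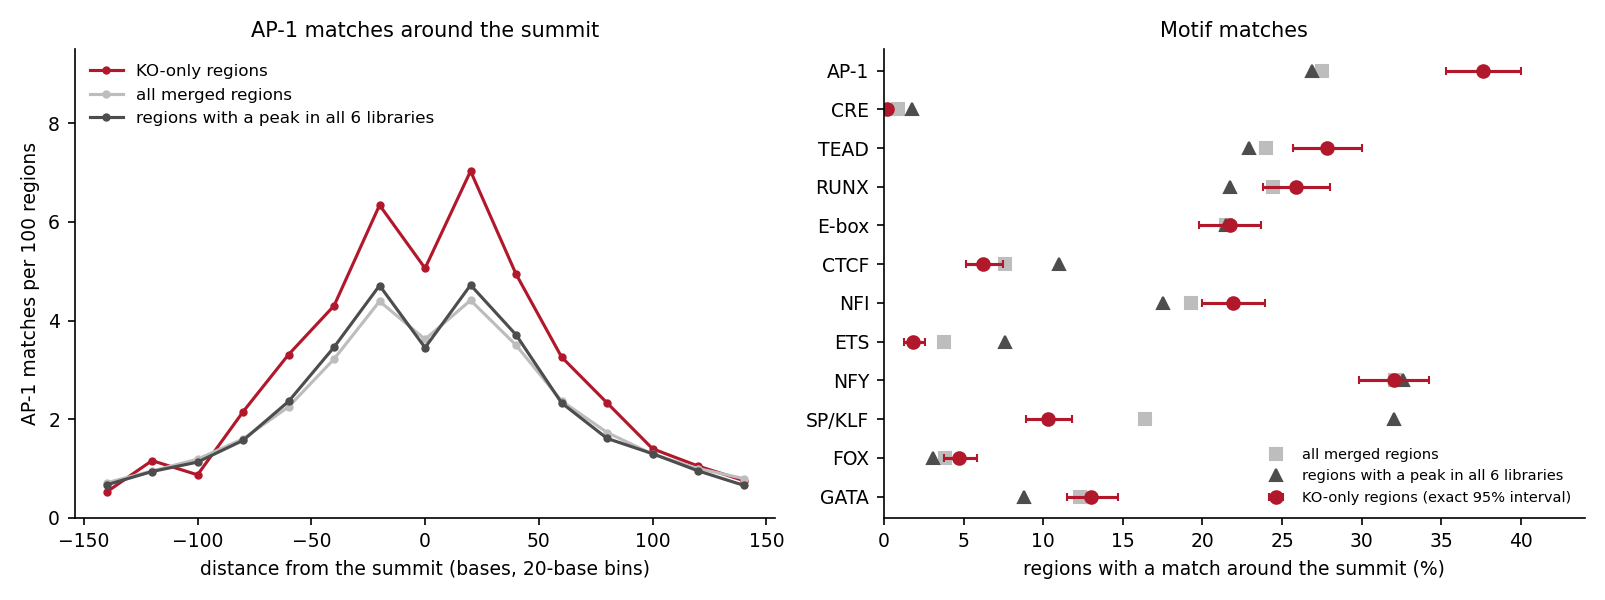
Left, AP-1 matches per 100 regions in bins of 20 bases by distance from the summit. Right, percent of regions with a match to each motif in 301 bases, with exact 95% intervals for KO-only regions. AP-1 was matched in 37.6% of KO-only and 27.5% of all merged regions, and SP/KLF in 10.3% and 16.4%.

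Other motifs of fibroblast enhancers differed less. TEAD (GGAATG) was matched in 27.8% of KO-only and 24.0% of all merged regions, RUNX (TGTGGT) in 25.9% and 24.4%, and NFI (TTGGCA) in 21.9% and 19.3%. The motifs of promoters were rarer than in all merged regions, which hold more promoters. SP/KLF (GGGCGG) was matched in 10.3% against 16.4%, ETS (CCGGAAG) in 1.80% against 3.75%, and the cyclic AMP response element CRE (TGACGTCA) in 0.174% against 0.864%. In regions with a peak in 2 *Chaserr*-/- and no WT library SP/KLF was matched in 9.42% and ETS in 1.74%, and in those with a peak in 3 *Chaserr*-/- and 1 WT library in 442 of 4148 regions and in 1.95%, while CRE was matched in 0.498% and 0.627% of these sets. Outside promoters SP/KLF was matched in 9.46% of KO-only and 11.0% of all merged regions, and ETS in 1.78% and 2.31%. The CRE gap remained there, with matches in 0.178% (3 regions) of KO-only and 0.584% of all merged regions. CTCF (AGGGGGC) was matched in 6.22% against 7.59%. The NFY letters CCAAT were found in 32.0% against 32.1%, the E-box CAGCTG in 21.7% against 21.5%, the forkhead letters TGTTTAC in 4.71% against 3.85%, and the letters AGATAA of GATA factors in 13.0% against 12.3%. The median GC content of the window was 47.5% in KO-only regions, 48.5% in all merged regions and 52.8% in regions found in all 6 libraries.

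The share of regions with an AP-1 match rose with the strength of the members, a description with no test. Ordered by their lowest fold enrichment, the 574 weakest regions (1.94 to 3.81) had AP-1 matches in 32.2%, the middle 573 in 39.1% and the 573 strongest (4.64 to 9.28) in 41.5%. The same order held for presence in the other set, with a WT peak in 46.7, 52.7 and 66.1% of the 3 groups and a double mutant peak in 64.5, 78.4 and 86.2%.

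The other set of libraries, which the rule did not use, shows how far the regions were open in other cultures. A peak was found in 575 (33.4%), 30 (1.74%) and 656 (38.1%) of the 1723 regions in WT replicates 1 to 3, and in 64 (3.71%), 956 (55.5%) and 975 (56.6%) in double mutant replicates 1 to 3. The corresponding shares of all merged regions were 48.0, 13.8 and 49.5% in WT and 19.8, 55.6 and 58.6% in double mutant libraries. In double mutant replicates 2 and 3 the shares of KO-only and of all merged regions lay close together, and in each WT library and double mutant replicate 1 that of KO-only regions was the lower. Regions of 1 library are not replicates, and no test was made of these shares. These double mutant libraries also had more peaks than the WT libraries. With at most the 58324 peaks of smallest p kept in each library of both sets, the shares of the 619 regions then found were 43.5, 2.91 and 48.9% in WT and 4.36, 54.8 and 52.7% in double mutant libraries. Of all 88474 merged regions at this peak number, 52713, 16625 and 53095 had a peak in WT replicates 1 to 3, and 26.4, 58.5 and 60.5% in double mutant replicates 1 to 3, a higher share than of KO-only regions in each library.

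Most KO-only regions had a peak in some WT culture. A peak in at least 1 WT library of the other set was found for 949 (55.1%), against 59.2% of all merged regions, and in at least 1 double mutant library for 1314 (76.3%), against 69.2%. A peak in a double mutant but no WT library was found for 494 regions (28.7%), against 14.8% of all merged regions, and the reverse for 129 (7.49%), against 4.88%. Of the neighbours in the rule, 31.1% of regions with a peak in 2 *Chaserr*-/- and no WT library and 18.4% of those with a peak in 3 *Chaserr*-/- and 1 WT library had a peak in a double mutant but no WT library. Both genotypes had a peak in 820 regions (47.6%; 54.4% of all merged regions) and neither in 280 (16.3%; 25.9% of all merged regions). Leaving out the libraries with few peaks, double mutant replicates 2 and 3 both had a peak where WT replicates 1 and 3 had none in 144 regions (8.36%), against 3.64% of all merged regions and 6.83% and 7.73% of these neighbours. The reverse held for 19 regions (1.10%), against 0.618%. AP-1 matches were about as frequent in members with a WT peak (37.7%), with only a double mutant peak (38.7%) and with neither (35.3%).

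Of the KO-only regions, 5 (0.290%) also had a peak in all 3 double mutant libraries and in no WT library of the other set. They thus had a peak in all 6 libraries with a *Chaserr* deletion and in none of the 6 WT libraries. The condition on the other set alone was met by 144 of all merged regions (0.118%). It was met by 0.289% of regions with a peak in 3 *Chaserr*-/- libraries and 1 WT library, close to the KO-only share. For regions with a peak in 2 *Chaserr*-/- and no WT library the share was 0.127%. The 5 KO-only regions lay nearest to *Tinag*, *Rcsd1*, *Sidt2*, *Snx7* and *Cpox*. The region in an intron 81048 bases upstream of *Tinag*, chr9:76974393-76974712, had fold enrichments of 5.50, 7.17 and 6.76 in *Chaserr*-/- and 4.70, 6.51 and 5.76 in double mutant mEFs. The region 6975 bases upstream of *Cpox*, which encodes an enzyme of heme synthesis, chr16:58663178-58663410, had 6.77, 3.37 and 5.92 and 5.29, 4.51 and 5.23. The other 3 were at 3.51 to 8.81 across their libraries. Double mutant replicate 1, with 28349 peaks, sets how few regions can meet this requirement.

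The RNA of the targeted genes matched the genotype labels. *Chaserr* had 71, 50 and 41 counts in WT replicates 4 to 6 and 0 in each *Chaserr*-/- library. It had 128, 109 and 102 counts in the WT and 63, 94 and 57 in the *Chaserr*+/- libraries of their set, and 652, 551 and 548 in WT against 0, 1 and 1 in double mutant libraries. *Chd2* was at 30.0, 31.7 and 35.1 CPM in WT and rose to 93.7, 79.2 and 91.2 in *Chaserr*-/- mEFs, with no overlap (log2 fold change 1.45, SE 0.136, edgeR adjusted p = 0.00568). It also rose in *Chaserr*+/- mEFs, from 36.7 ± 1.34 to 53.8 ± 3.18 CPM (SD, n = 3, log2 fold change 0.55, edgeR adjusted p = 0.0369), and in double mutant mEFs, whose *Chd2* transcript carries the frameshift, from 38.0 ± 0.369 to 140 ± 11.5 CPM (SD, n = 3, log2 fold change 1.88, edgeR adjusted p = 8.78e-06). The *Chd2* call in *Chaserr*-/- mEFs was lost without WT replicate 5 (adjusted p = 0.0864). That in *Chaserr*+/- mEFs was lost without WT replicate 1, 2 or 3 (0.234, 0.224 and 0.224) or *Chaserr*+/- replicate 2 or 3 (0.0555 and 0.09), with log2 fold changes from 0.51 to 0.60, and that in double mutant mEFs passed in every alternative run. Library totals were 9672637 to 11209060 counts in the *Chaserr*-/- set, 11615325 to 14178022 in the *Chaserr*+/- set and 10202169 to 16983416 in the double mutant set.

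The genes nearest to KO-only regions did not, as a group, have more RNA in *Chaserr*-/- mEFs. Of 978 genes within 50 kb, 797 had an RNA value and 578 were expressed enough to be tested. At an unadjusted p under 0.05, 93 (16.1%) were higher and 120 (20.8%) lower, against 17.7% higher and 16.1% lower of all 13580 genes tested. Their median log2 fold change was −0.06, against −0.02 for all genes. At an adjusted p under 0.05, *Dapk3* and *Mybph* fell and none rose, against 16 genes (0.118%) in all, of which 3 rose and 13 fell. The number called was 1015, 2827 and 5 on leaving out *Chaserr*-/- replicates 1, 2 and 3 in turn, and 7, 2 and 5 for WT replicates 4, 5 and 6. The adjusted p of 1487 genes, 51 of them nearest genes, lay between 0.05 and 0.06, just past the threshold. With DESeq2, 58 (11.1%) of 521 nearest genes were higher and 59 (11.3%) lower, against 12.3% and 8.79% of 12147 genes.

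The summed RNA of the macrophage, skeletal muscle, chondrocyte and fibroblast lists was lower in *Chaserr*-/- mEFs, without overlap, though narrowly so for chondrocyte and fibroblast genes. The summed level of 17 macrophage genes, led by *Fcer1g* at 192 FPKM, was 989, 803 and 879 FPKM in WT and 602, 632 and 652 in *Chaserr*-/- mEFs, with 9 of 17 lower at unadjusted p and 2 at adjusted p. That of 14 skeletal muscle genes, led by *Actc1* at 314 FPKM, was 1230, 884 and 702 in WT and 519, 515 and 472 in *Chaserr*-/- mEFs, with 11 of 14 lower at unadjusted p and 1 at adjusted p. Of all genes tested, 16.1% were lower and 17.7% higher at unadjusted p. Chondrocyte genes, led by *Col2a1* at 26.1 FPKM, summed to 54.9, 74.3 and 79.5 in WT and 21.8, 50.6 and 53.0 in *Chaserr*-/- mEFs, with 3 of 11 lower at unadjusted p and none at adjusted p. Fibroblast genes, led by *Vim* at 2380 FPKM, summed to 7120, 7100 and 6770 in WT and 5680, 5900 and 6640 in *Chaserr*-/- mEFs, with 2 of 16 higher and 2 lower at unadjusted p and none at adjusted p. Sensory neuron genes, led by *Tubb3* at 14.8 FPKM, summed to 28.5, 37.5 and 34.7 and to 43.0, 35.8 and 33.7, which overlapped. No gene of these lists was at 0 in all libraries. The part of these differences in the RNA and ATAC-seq results was not tested.

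The largest change among the nearest genes called was that of *Dapk3*, which encodes a death-associated protein kinase that phosphorylates myosin light chains. It was at 46.7, 48.1 and 55.2 CPM in WT and at 12.8, 17.9 and 19.7 in *Chaserr*-/- mEFs, so every mutant library was below every WT library (log2 fold change −1.57, SE 0.177, edgeR adjusted p = 0.0105). Its KO-only region, chr10:80647470-80647871, lay in its own intron, 1005 bases downstream of the start, with fold enrichments of 5.54, 4.41 and 3.83 and a peak in 1 double mutant library. *Dapk3* overlapped between the groups in the other comparisons, with log2 fold changes of −0.18 in *Chaserr*+/- and −0.03 in double mutant mEFs. The call was lost without WT replicate 5 (adjusted p = 0.0996) or WT replicate 6 (adjusted p = 0.0668), and with GC and length correction the log2 fold change was −1.04 (adjusted p = 0.0183).

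*Mybph* encodes myosin-binding protein H of skeletal muscle. It was at 46.1, 39.6 and 35.2 CPM in WT and 18.2, 21.3 and 16.0 in *Chaserr*-/- mEFs, with no overlap (−1.12, SE 0.165, edgeR adjusted p = 0.0439). Its region, chr1:136102734-136102940, lay 12834 bases downstream in an intron of the neighbouring adenosine receptor gene *Adora1*, at 4.66, 4.43 and 4.24, and had no peak in the other set. The skeletal muscle list, to whose genes *Mybph* is related, was lower in the same libraries, and the part of this in the *Mybph* value was not tested. The *Mybph* call was lost without WT replicate 4, 5 or 6 (adjusted p = 0.111, 0.18 and 0.105) or *Chaserr*-/- replicate 3 (0.0816) and after correction for GC content and gene length (log2 fold change −0.73, adjusted p = 0.0599).

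Of the nearest genes with a positive log2 fold change in *Chaserr*-/- mEFs, *Ccng1*, *Hdac2*, *Tceal9*, *Rlim* and *Lrrc40* were among those with the smallest p, and none of the 5 passed the test, each at an adjusted p of 0.0522. *Ccng1*, a p53 target that encodes cyclin G1, was at 229, 295 and 240 CPM in WT and 876, 419 and 561 in *Chaserr*-/- mEFs (log2 fold change 1.28), and its region lay 35179 bases upstream. *Hdac2*, a histone deacetylase gene, was at 62.9, 57.6 and 57.7 in WT and 174, 86.5 and 110 CPM in *Chaserr*-/- mEFs (1.05), with its region 8592 bases upstream. *Tceal9* (1.03), the ubiquitin ligase gene *Rlim* (0.86) and *Lrrc40* (0.69) followed. Of the libraries, *Chaserr*-/- replicate 1 had the highest value of each. With DESeq2 all 5 passed, at adjusted p from 1.4e-05 for *Ccng1* to 0.00185 for *Lrrc40*. With correction for GC content and gene length none of the 5 passed, and the log2 fold changes were 0.74 for *Ccng1*, 0.50 for *Hdac2*, 0.46 for *Tceal9*, 0.36 for *Rlim* and 0.15 for *Lrrc40* (adjusted p from 0.0504 to 0.419). In *Chaserr*+/- and double mutant mEFs, *Hdac2*, *Rlim*, *Tceal9*, *Lrrc40* and *Ccng1* overlapped between the groups.

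Among the nearest genes with a negative log2 fold change, *Chst12*, *Kdm6b*, *Glis1* and *Loxl1* also had an adjusted p of 0.0522 and did not pass. *Loxl1*, which encodes a lysyl oxidase that cross-links elastin, was at 483, 507 and 494 CPM in WT and 254, 353 and 338 in *Chaserr*-/- mEFs (log2 fold change −0.65), and its region overlapped one of its exons 1415 bases from the start. *Kdm6b*, a histone H3 lysine demethylase gene, was at 72.3, 105 and 86.1 in WT and 44.7, 55.2 and 52.3 CPM in *Chaserr*-/- mEFs (−0.79), with its region in its own intron. *Chst12*, a chondroitin sulfotransferase gene, was at 67.3, 74.9 and 62.6 in WT and 31.1, 42.9 and 39.2 CPM in *Chaserr*-/- mEFs (−0.85), with its region 2451 bases upstream. *Glis1*, a Krüppel-like zinc finger gene, was at 7.20, 10.2 and 7.96 in WT and 2.67, 4.05 and 4.29 CPM in *Chaserr*-/- mEFs (−1.20). With DESeq2 these 4 passed, at adjusted p from 0.000183 for *Chst12* to 0.00465 for *Glis1*. With correction for GC content and gene length none of the 4 passed, at log2 fold changes of −0.68 for *Glis1*, −0.50 for *Chst12*, −0.26 for *Kdm6b* and −0.13 for *Loxl1* (adjusted p from 0.0504 to 0.414).

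**Figure D5:**
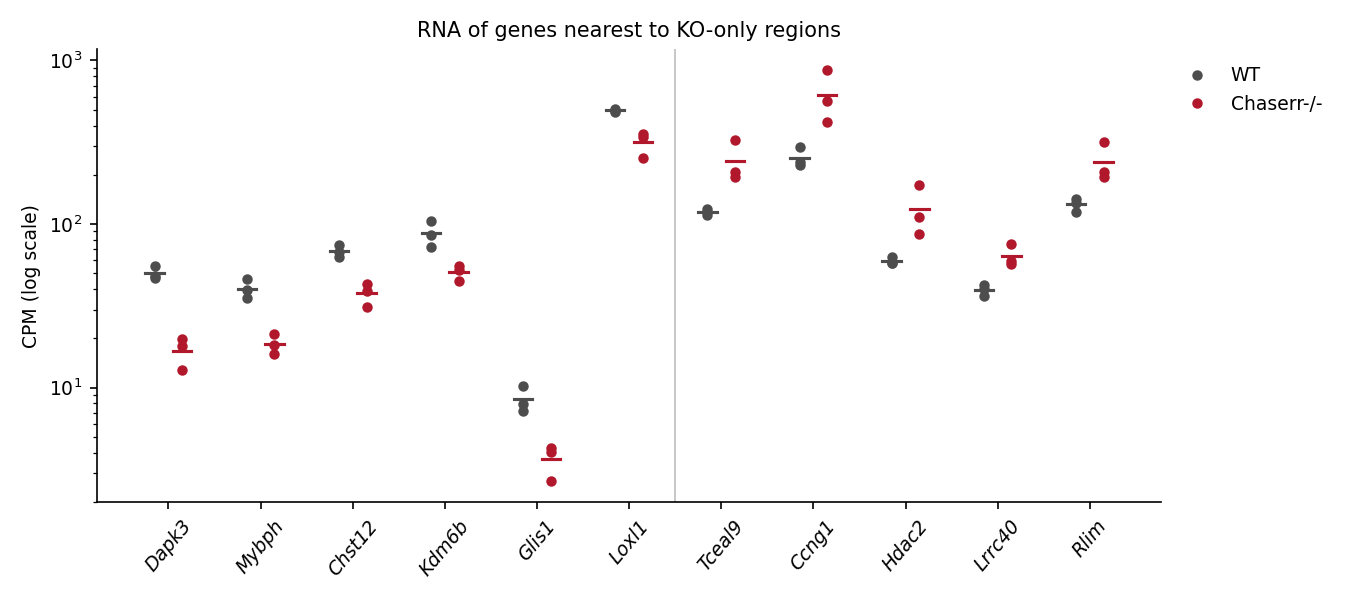
RNA of 11 genes nearest to KO-only regions, in CPM on a log axis, for the 3 WT (grey) and 3 *Chaserr*-/- (red) libraries, with a line at each mean. The 6 genes on the left had a lower and the 5 on the right a higher mean in *Chaserr*-/- mEFs. They were chosen by their p, and *Dapk3* and *Mybph* alone passed edgeR's adjusted threshold.

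Of the genes beside the strongest regions that are given here, none passed edgeR's test. *C330002G04Rik*, by which the *Trpm3* intron region is named, is not among them. *Lysmd4* was at 5.56, 6.14 and 5.11 CPM in WT and 4.41, 5.81 and 5.51 in *Chaserr*-/- mEFs, which overlapped (log2 fold change −0.09). *4930577N17Rik* was at 2.10, 2.71 and 2.46 in WT and 2.77, 2.38 and 3.17 CPM in *Chaserr*-/- mEFs, also overlapping (0.19), and *4931429P17Rik* and *Gm10474* were too low to be tested. *Parm1* was at 26.5, 26.9 and 29.3 in WT and 17.5, 20.4 and 18.2 CPM in *Chaserr*-/- mEFs without overlap (−0.56, adjusted p = 0.0523), and passed with DESeq2 (adjusted p = 0.0188) and with GC and length correction (−0.67, adjusted p = 0.0499). *Vim* was at 4470, 4890 and 3940 in WT and 3460, 3610 and 4120 CPM in *Chaserr*-/- mEFs, which overlapped (−0.25, adjusted p = 0.181).

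The nearest genes of KO-only regions within 50 kb, 978 of 26225 annotated genes, held 4 of 17 fibroblast, 1 of 12 sensory neuron, 1 of 15 macrophage, 1 of 14 skeletal muscle and 1 of 11 chondrocyte genes. Of the fibroblast genes, *Postn*, which encodes periostin of the extracellular matrix, had a region 7680 bases upstream at 9.31, 7.65 and 8.88, with a peak in 1 WT and 1 double mutant library of the other set. *Col3a1*, *Col6a1* and *Vim* were further fibroblast genes with a region. The other list genes with a region were *Tac1* of sensory neurons, *Mrc1* of macrophages, *Ryr1* of skeletal muscle, *Matn3* of cartilage, the AP-1 genes *Fos* and *Atf3*, and the remodeller gene *Chd7*.

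Among the AP-1, TEAD, RUNX and CHD genes, *Chd2* alone passed edgeR's test in any of the 3 comparisons. *Fos*, whose product forms AP-1 with JUN proteins, was at 245, 216 and 197 CPM in WT and 101, 152 and 167 in *Chaserr*-/- mEFs, with no overlap (log2 fold change −0.65, adjusted p = 0.0557), while its KO-only region lay 18366 bases downstream at 6.29, 6.05 and 7.01 and had a peak in 2 WT and 2 double mutant libraries. *Junb*, which encodes a partner of FOS, was at 41.8, 58.0 and 40.0 in WT and 22.7, 31.9 and 24.8 CPM in *Chaserr*-/- mEFs, also with no overlap (−0.81, adjusted p = 0.0522). With DESeq2, *Fos* (adjusted p = 0.00976) and *Junb* (adjusted p = 0.00333) passed as lower and *Cbfb* (adjusted p = 0.00746) and *Chd1* (adjusted p = 0.00584) as higher. With correction for GC content and gene length none of the 4 passed, at −0.55, −0.27, 0.33 and 0.39 for *Fos*, *Junb*, *Cbfb* and *Chd1*. *Runx3* was at a log2 fold change of −0.65 (adjusted p = 0.0801), *Cbfb*, which encodes the partner of RUNX proteins, at 0.77 (adjusted p = 0.056), and *Chd1*, a relative of *Chd2*, at 0.77 (adjusted p = 0.0541).

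In *Chaserr*+/- mEFs the share of nearest genes that were lower was below that of all genes. Of 566 tested, 33 (5.83%) were higher and 8 (1.41%) lower at unadjusted p under 0.05, against 5.25% and 3.12% of 13282 genes, and none was called at adjusted p, against 23 genes (0.173%). Their median was 0.02. In *Chaserr*-/- *Chd2*m/m mEFs, 36 (6.08%) of 592 were higher and 35 (5.91%) lower, against 4.16% and 5.73% of 14076 genes, with a median of −0.01.

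In double mutant mEFs 3 nearest genes passed at adjusted p, against 13 (0.0924%) in all, and they are named after their values were seen. *Hbegf*, which encodes a growth factor of the EGF family, rose from 32.4, 31.8 and 28.0 to 72.3, 79.7 and 49.3 CPM (log2 fold change 1.13, SE 0.167, edgeR adjusted p = 0.044). *Baiap2l1*, which encodes a membrane-bending adaptor of actin, fell from 24.0, 28.1 and 29.8 to 12.8, 15.0 and 11.9 CPM (−1.04, SE 0.143, edgeR adjusted p = 0.0339). *Mrc1*, the mannose receptor gene of macrophages, fell from 47.9, 48.1 and 35.7 to 22.3, 19.6 and 22.8 CPM (−1.03, SE 0.143, edgeR adjusted p = 0.0339), with a region in its own intron at 4.23, 7.59 and 6.76 in *Chaserr*-/- mEFs. The groups did not overlap for these 3 genes. All 3 calls were lost without WT replicate 1 (adjusted p = 0.192, 0.102 and 0.192 for *Hbegf*, *Baiap2l1* and *Mrc1*), WT replicate 2 (0.174, 0.165 and 0.168) or double mutant replicate 1 (0.171 for each). *Hbegf* and *Mrc1* also missed the threshold without double mutant replicate 2 (0.0631 and 0.074) and after correction for GC content and gene length (0.0576 for both). The macrophage list summed to 526, 505 and 567 FPKM in the WT and 473, 338 and 322 in the double mutant libraries, and the part of this in the *Mrc1* value was not tested.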

How the data were processed

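Narrow peaks of 12 ATAC-seq libraries and gene tables of 18 RNA-seq libraries of mEFs were used, grouped by their labels; embryos of 1 genotype were the replicates. The authors aligned ATAC-seq reads to mm9 with Bowtie2 and called peaks per library with MACS2. The deposited peak files give fold enrichment over the local background (a ratio), −log10 of the p-value and q-value, and a rounded score. The labels name both mm9 and mm10, and every peak ended within the mm9 chromosome lengths. The authors quantified RNA with RSEM and deposited expected counts, FPKM and transcript lengths per gene. Versions are not given in the sources used here.

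Peaks overlapping by 1 base or more were merged (Python 3.11.15, pandas 2.3.3). A promoter was within 300 bases of the 5′ end of a GENCODE mm9 gene, and a nearest gene had its start within 50 kb of the summit. Motifs were searched in mm9 (pysam 0.24.0). Expected counts were rounded, scaled by TMM and tested with edgeR 4.0.16 (R 4.3.3; filterByExpr, quasi-likelihood test, Benjamini-Hochberg adjustment over all genes tested, called at adjusted p under 0.05), without covariates. CPM are TMM-scaled. DESeq2 1.42.0 was an alternative. The test was checked on simulated counts.

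Named were the 6 strongest regions by the lowest of their 3 fold enrichments, the 10 strongest promoter regions, the 2 weakest regions and their nearest genes, nearest genes called, the 6 nearest genes with the smallest p in each direction with at least 1 FPKM, and factor genes at unadjusted p under 0.05. A gene that this rule also selected is not reported here. Regions, lists and tests were chosen with earlier results of these data known. Peak files carry no read counts, so the depth of ATAC-seq is unknown. In the double mutant RNA set, the titles of mutant and WT samples name different crosses, while their descriptions place them in 1 set.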

Additional observations from a re-analysis of the deposited data

Results flagged for a closer look

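Only the genes named in this report were searched here, and the share of all genes tested is not given. For 3 of them, near KO-only regions, every mutant library lay on one side of WT in *Chaserr*-/- mEFs. In another genotype every mutant library of these genes lay on the opposite side. None of these differences between genotypes was tested, and none of the opposite values passed edgeR's adjusted threshold. *Fos* had a log2 fold change of −0.65 in *Chaserr*-/- and 0.99 in *Chaserr*+/- mEFs, where it was at 9.32, 9.55 and 10.8 CPM in WT and 25.7, 17.1 and 16.0 in mutant libraries (edgeR adjusted p = 0.0623). In double mutant mEFs it was at −0.89, on the side of *Chaserr*-/- mEFs. *Mybph* had −1.12 in *Chaserr*-/- mEFs, 0.76 in *Chaserr*+/- mEFs (edgeR adjusted p = 0.192) and 0.53 in double mutant mEFs (edgeR adjusted p = 0.39). The skeletal muscle list had 11 of 14 genes lower at unadjusted p under 0.05 in *Chaserr*-/- mEFs, 12 of 14 higher in *Chaserr*+/- mEFs and 11 of 14 higher in double mutant mEFs, against 16.1% lower, 5.25% higher and 4.16% higher of all genes tested, and its part in the *Mybph* values was not tested. *Parm1* had −0.56 in *Chaserr*-/- and 0.52 in *Chaserr*+/- mEFs (edgeR adjusted p = 0.429). The WT levels of these genes also differed between the *Chaserr*-/-, *Chaserr*+/- and double mutant sets. Mean WT values were 219, 9.89 and 167 CPM for *Fos*, 40.3, 7.29 and 12.4 for *Mybph* and 27.6, 24.3 and 17.8 for *Parm1*. The mutant means of *Mybph* were 18.5, 12.3 and 17.8 CPM. The part of the WT levels in the opposite signs was not tested.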

How the results depend on the processing

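The number of KO-only regions, 1723, was 619 with equal peak numbers and 2392 to 7864 when a library was left out, which loosens the rule by construction. The 118 WT-only regions became 48 at a −log10 q of 5 or more, 355 with equal peak numbers and 189 to 494 without a library. The promoter share of 2.26% was 5.57% within 1000 bases and 4.47% from any transcript start (an alternative chosen after seeing the data), and 1.87 to 2.54% without a library. The mean share with a peak in the other set was 24.4% for WT and 38.6% for double mutant libraries, 15.6 to 35.7% and 27.9 to 56.0% without a library. It was 35.7% and 56.0% without WT replicate 2 and double mutant replicate 1, chosen after seeing the data.

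In *Chaserr*-/- mEFs, 16 genes became 2565 with DESeq2, 70 with GC and length correction, 1383 with at least 10 counts in every library, 1407 with no filter and 2 to 2827 without a library. In *Chaserr*+/- mEFs, 23 became 82 with DESeq2, 46 with GC and length correction, 68 with no filter and 3 to 54 without a library. In double mutant mEFs, 13 became 219 with DESeq2, 103 with no filter and 3 to 201 without a library. With the replicate number as a block, the counts were 74 in *Chaserr*+/- and 75 in double mutant mEFs. The deviations of same-numbered samples had correlations of 0.0193, 0.185 and −0.119 in the first and −0.0565, −0.0864 and 0.213 in the second. These few values cannot show whether same-numbered samples shared more than a number. No paired analysis was possible because *Chaserr*-/- and WT mEFs share no replicate numbers. The causes of these shifts were not tested.

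For nearest genes in *Chaserr*-/- mEFs, 93 higher became 41 within 10 kb, 155 at any distance and 59 to 103 without a library, and 120 lower became 62 within 10 kb, 147 at any distance, where more were higher than lower, and 78 to 122 without a library. With GC and length correction 67 were higher and 80 lower, and the counts were 89 and 87 without WT replicate 4 and 88 and 87 without *Chaserr*-/- replicate 3. Their median of −0.0605 was 0.00391 with GC and length correction, −0.123 within 10 kb, −0.000354 at any distance, −0.0914 for genes that hold the summit and −0.0658 to −0.0305 without a library. The *Chaserr*+/- median kept its sign at 0.0167 to 0.0354. The double mutant median of −0.00512 was 0.00878 with at least 10 counts, 0.0021 at any distance, 0.0139 for genes that hold the summit and −0.00441 to 0.0143 without a library. *Lysmd4* was at −0.166 to 0.0167 without a library, turning positive without *Chaserr*-/- replicate 1, and *Cand2* to 0.00842 with GC and length correction. In a window of 75 bases on either side of the summit, 31.3% of KO-only and 21.4% of all merged regions had an AP-1 match. The share was 29.7% of regions with a peak in 3 *Chaserr*-/- libraries and 1 WT library. It was 23.8% of those with a peak in 2 *Chaserr*-/- and no WT library. Without read counts, a missing peak cannot be told apart from a peak just under the caller's threshold.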
